A study of Homo sapiens with 9 samples.

Results

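The enzymes that make and modify long-chain fatty acids were followed in Huh7 cells, a human hepatocellular carcinoma line, treated with compounds that stall the ribosome on selected proteins. With earlier results of these data known, a set of 10 genes was chosen by name. The genes are the soluble enzymes ACLY, ACACA, FASN and ME1, and the enzymes of the endoplasmic reticulum (ER) membrane SCD, FADS1, FADS2, ELOVL1, ELOVL5 and ELOVL6. All 10 were listed in both deposited tables, against 9157 transcripts in the table for PF8503 and 8839 in that for PF846.

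The libraries were of ribosome-protected mRNA fragments, the pieces of mRNA that a ribosome covers during nuclease digestion. They came from Huh7 cells treated for 1 hr with 1.5 µM PF-06378503 (PF8503), with 1.5 µM PF-06446846 (PF846, spelled PF-067446846 on the sample labels) or with 0.5% DMSO as vehicle, with 3 biological replicates each and 9 libraries in all. PF8503 and PF846 are related small molecules that bind in the ribosome exit tunnel and hold up selected nascent chains. The cells are 1 established tumour line. The library names put vehicle in sequencing lanes 1, 1 and 5, PF846 in lanes 2, 2 and 6 and PF8503 in lanes 4, 4 and 8, so that condition and lane cannot be told apart. The study's counting script numbers the replicates otherwise than the labels do, and which libraries made up the means is taken from the labels.

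Each deposited table gives 1 mean per condition, in read counts divided by size factors (normalized counts), and single libraries have no value of their own here. The depth of each library is therefore unknown. The authors' own test columns were not used, so the comparisons made here have no replicate error and no test. Each log2 ratio below is that of the authors' mean with compound to the authors' mean with vehicle. A transcript counted as past the fold from an absolute log2 ratio of 0.25, which is 18.9% more or 15.9% less than vehicle. In place of replicate error, each gene was set against the transcripts whose vehicle mean lay within a factor of 1.5 of its own (transcripts of like signal), with the central 95% of their log2 ratios. Changes in mRNA amount and in ribosome occupancy per mRNA cannot be told apart in these counts.

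Hepatocytes turn surplus carbon into fat. ACLY cuts cytosolic citrate into acetyl-CoA, ACACA carboxylates this to malonyl-CoA, and FASN condenses the units into palmitate with NADPH, part of which ME1 supplies. Palmitate is then handed to enzymes of the ER membrane: ELOVL proteins carry out the first step of chain elongation, SCD puts in the first double bond, and FADS1 and FADS2 add further double bonds to polyunsaturated chains. Transcription of most of these genes is raised by SREBP-1c, itself made as an ER membrane protein. Hepatocyte markers were abundant in these cells. AFP and ALB were numbers 1 and 2 of the PF8503 table by vehicle mean, at 212970 and 148370 normalized counts, and all 11 markers were listed, among them the regulator HNF4A at 1856 normalized counts. None of the markers was past the fold with PF8503, against 8.02% of all transcripts. With PF846 1 was past it downward, against 2.13% of all transcripts (APOC3, an apolipoprotein, at a log2 ratio of -0.28).

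The soluble and the ER-membrane enzymes differ in sequence. Mean Kyte-Doolittle hydropathy was taken over windows of 19 residues of the GENCODE version 44 translation, and windows of at least 1.6 that did not overlap were counted as hydrophobic stretches. The ER-membrane enzymes had 4 (ELOVL1), 3 (FADS1 and ELOVL6) or 2 (SCD, FADS2 and ELOVL5). ACLY and ME1 had 0, and ACACA and FASN had 1 each. The first such stretch began at codon 24 in ELOVL1, 27 in ELOVL5, 61 in ELOVL6, 75 in SCD, 125 in FADS2 and 181 in FADS1, and only at codons 549 in FASN and 1851 in ACACA. The number of stretches thus separated the groups, with at least 2 in each ER-membrane enzyme and at most 1 in each soluble one.

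The coding sequence of the most hydrophobic window is shown for 5 enzymes. They are the 4 that stood farthest out in the comparisons below and FADS2, whose gene record overlaps that of FADS1. The sequences are from GENCODE version 44. Capitals mark codons with T as the middle base, which encode hydrophobic residues (phenylalanine, leucine, isoleucine, methionine or valine).
SCD: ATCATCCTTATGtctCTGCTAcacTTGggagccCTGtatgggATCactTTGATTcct
FADS1: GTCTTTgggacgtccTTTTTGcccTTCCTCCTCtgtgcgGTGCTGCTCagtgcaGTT
FADS2: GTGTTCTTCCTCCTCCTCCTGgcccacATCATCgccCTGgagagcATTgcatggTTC
ELOVL6: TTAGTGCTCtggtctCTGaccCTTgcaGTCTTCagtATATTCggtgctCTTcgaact
FASN: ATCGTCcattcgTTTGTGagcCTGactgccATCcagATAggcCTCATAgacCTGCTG
These are codons 76 to 94 of SCD (GRCh38, chr10:100348262-100348318, forward strand, exon 2 of 6), 209 to 227 of FADS1 (chr11:61812474-61812530, reverse strand, exon 3 of 12) and 131 to 149 of FADS2 (chr11:61840406-61840462, forward strand, exon 3 of 12). Those of ELOVL6, codons 63 to 81, run across the junction of exons 2 and 3 of 4 between 110059733 and 110105531 of chromosome 4 on the reverse strand. Those of FASN, codons 549 to 567, run across exons 10 and 11 of 43 between 82090544 and 82090917 of chromosome 17 on the reverse strand. Of the 19 codons, 12 had a middle T in FADS2, 11 in SCD, FADS1 and FASN and 10 in ELOVL6, so the soluble FASN matched the membrane enzymes in this 1 window. The window mean was 2.22 in FADS2, 2.20 in FADS1, 1.9 in SCD, 1.75 in FASN and 1.70 in ELOVL6.

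With vehicle, SCD was read far more densely than any other enzyme of the set. Levels were compared per codon of the coding sequence, with 10 codons left out at each end. They take the rest of the coding sequence as counted, which the means do not show for single transcripts. SCD (ENSG00000099194, chromosome 10, 100347233 to 100364826) stood at 50.3 normalized counts per codon, above 98.8% of the 9090 transcripts with a coding length. FASN (ENSG00000169710, chromosome 17, 82078338 to 82098294) drew slightly more reads in all, with an authors' vehicle mean of 17207 normalized counts against 17038 for SCD. However, FASN has 2511 codons in place of the 359 of SCD. Its level was 6.91 per codon, so that the desaturase was read 7.28 times as densely as the synthase.

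Below SCD came a group with nearly equal levels. ELOVL1, which elongates saturated very long chains, stood at 7.02 normalized counts per codon, FASN at 6.91 and ELOVL5, which elongates polyunsaturated chains, at 6.89. With ELOVL1 at 1.02 times ELOVL5 and no replicate spread, no order is read from these. ACLY followed at 5.89 and FADS1, the delta-5 desaturase, at 4.48 normalized counts per codon. ME1 at 2.35, FADS2, the delta-6 desaturase, at 2.04 and ELOVL6, which takes palmitate to stearate, at 1.84 were lower, and ACACA was lowest at 0.606. The median over all transcripts was 0.871, so ACACA was the one enzyme of the set below it, although it makes the malonyl-CoA that FASN uses. FASN was read 11.4 times and ACLY 9.71 times as densely as ACACA. The soluble enzymes spanned an 11.4-fold range and the ER-membrane enzymes a 27.3-fold range, with medians of 4.12 and 5.68 per codon. The wider range rests on SCD, without which the ER-membrane enzymes ran from 1.84 to 7.02. Together the 10 genes took 0.480% of the summed vehicle means, of which SCD and FASN gave 0.162% and 0.164%. The coding lengths are those of GENCODE version 44 and may differ from those of the transcripts the authors used.

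**Figure D1:**
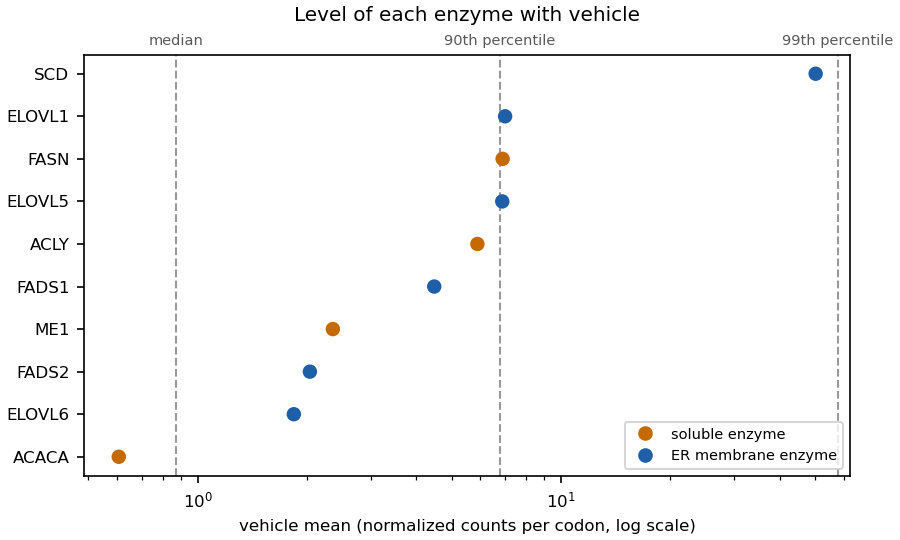
Vehicle level of each of the 10 enzymes, in normalized counts per codon on a log axis, from the authors' means in the PF8503 table; dashed lines mark the median (0.871), the 90th percentile and the 99th percentile over 9090 transcripts. SCD stood apart at 50.3, ELOVL1, FASN and ELOVL5 lay together near 7, and ACACA lay below the median.

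None of the 10 enzymes of the set passed the fold with PF8503. Of all transcripts listed, 8.02% did, 3.79% upward and 4.23% downward. At a fold of 0.15 FASN and FADS2 would count as higher and ELOVL6 as lower, beside 12.1% and 10.1% of transcripts, and at 0.5 the share was 1.32%. The log2 ratios of the 10 genes ran from -0.17 for ELOVL6 to 0.18 for FASN, with a median of 0.072 against 0.013 over all transcripts, and 7 of the 10 (6 after centring on the median of all transcripts, which takes SCD to -0.0080) lay above 0 against 54.7% of all transcripts. The members were few and the values have no error, so nothing is read from this share.

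FASN had the highest value of the set with PF8503. Its authors' mean was 17207 normalized counts with vehicle and 19434 with PF8503, a log2 ratio of 0.18 or 12.9% more. This lay above the central 95% of the 84 transcripts of like signal, -0.28 to 0.12. FASN was at percentile 99.4 among these transcripts and at percentile 91.0 of the whole table. With 84 such transcripts, each limit of the range rests on few of them. Of the 10 members, 9 were inside their central 95% with PF8503, 9 with PF846 and 9 in PF8503 over PF846. A central 95% leaves out some transcripts by construction, so a member outside it is not by itself read as changed.

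The other soluble enzymes were nearer to vehicle with PF8503. ACLY (ENSG00000131473, chromosome 17, 41866917 to 41930542) went from 6363 to 6779 normalized counts, a log2 ratio of 0.091. ACACA (ENSG00000278540, chromosome 17, 37084992 to 37406836) went from 1432 to 1485, a log2 ratio of 0.052. ME1 (ENSG00000065833, chromosome 6, 83210402 to 83431051) had 1300 with vehicle and 1297 with PF8503, a log2 ratio of -0.0028. ACLY, ACACA and ME1 were inside the central 95% of their transcripts of like signal, at percentiles 85.2, 70.2 and 45.0.

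The ER-membrane enzymes lay on both sides of 0 with PF8503. SCD had 17038 normalized counts with vehicle and 17095 with the compound, a log2 ratio of 0.0047. FASN, with nearly the same vehicle mean, had 0.18. ELOVL5 (ENSG00000012660, chromosome 6, 53267398 to 53349179) was equally level, at 1923 and 1922 normalized counts.

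FADS1, FADS2 and ELOVL1 had the higher values among the ER-membrane enzymes. FADS1 (ENSG00000149485, chromosome 11, 61799627 to 61829318, reverse strand) went from 2154 to 2367 normalized counts with PF8503, a log2 ratio of 0.14. FADS2 (ENSG00000134824, chromosome 11, 61792980 to 61867354, forward strand) went from 863 to 958, a log2 ratio of 0.15. ELOVL1 (ENSG00000066322, chromosome 1, 43363398 to 43368074) went from 1817 to 1961, a log2 ratio of 0.11. They stood at percentiles 94.7, 93.8 and 88.5 of their transcripts of like signal, inside the central 95%.

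ELOVL6 had the lowest value of the set with PF8503. It lies on chromosome 4 from 110045846 to 110199199 (ENSG00000170522), and its authors' mean was 450 normalized counts with vehicle and 400.2 with PF8503, a log2 ratio of -0.17 or a change of -11.1%. It was also the least read of the 10, and 2310 transcripts of like signal had a central 95% of -0.28 to 0.23. ELOVL6 was at percentile 6.86 of these, so its value did not exceed the spread among such transcripts.

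With PF846 the values of the enzymes lay in a narrower range, and again none passed the fold, against 3.79% of the transcripts listed. None passed 0.15 either, beside 13.6% of transcripts, and 0.475% passed 0.5. The log2 ratios ran from -0.087 for SCD to 0.071 for FASN. Their median was 0.036, beside 0.00086 over all transcripts, and 8 of the 10 lay above 0 against 50.3% of all transcripts. The central 95% of all transcripts was narrower too, -0.23 to 0.22 here against -0.32 to 0.28 for PF8503.

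SCD was the lowest of the set with PF846. Its authors' mean was 15597 normalized counts with vehicle and 14687 with PF846, a log2 ratio of -0.087 or a change of -5.84%. The central 95% of the 86 transcripts of like signal was -0.079 to 0.073, and SCD, at percentile 1.74, lay just below it. FADS1 was the other enzyme below 0, with 1971 and 1889 normalized counts and a log2 ratio of -0.062. It stood at percentile 11.8 of its transcripts of like signal, inside the central 95%.

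The remaining enzymes were at or slightly above vehicle with PF846. FASN went from 15752 to 16542 normalized counts, a log2 ratio of 0.071, at percentile 95.9 of its transcripts of like signal. ACLY went from 5825 to 6050, a log2 ratio of 0.055, and ACACA from 1311 to 1339, a log2 ratio of 0.031. The soluble enzymes all stood above 0, ME1 by the least, with 1189 and 1193 normalized counts. Among the ER-membrane enzymes ELOVL5 went from 1760 to 1825, ELOVL1 from 1664 to 1720 and FADS2 from 790 to 813. These 3 had log2 ratios of 0.052, 0.048 and 0.041. ELOVL6, the lowest with PF8503, stood at 412 normalized counts with vehicle and 414 with PF846.

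**Figure D2:**
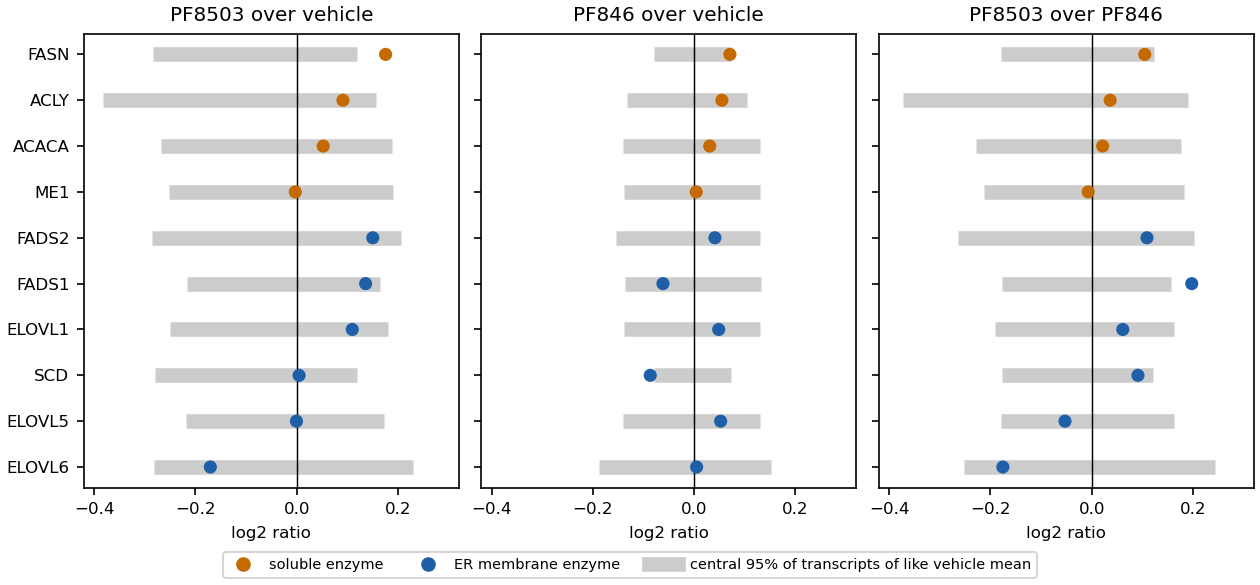
Log2 ratio of each enzyme with PF8503 over vehicle, PF846 over vehicle and PF8503 over PF846, from the authors' means; grey bars are the central 95% of transcripts of like vehicle mean, not replicate error. FASN lay above its bar with PF8503, SCD just below its bar with PF846, and FADS1 above its bar in PF8503 over PF846; all other points were inside. The bars leave out some transcripts by construction.

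The soluble and the ER-membrane enzymes overlapped with both compounds. With PF8503 the medians were 0.072 for the 4 soluble and 0.057 for the 6 ER-membrane enzymes, and the ranges were -0.0028 to 0.18 and -0.17 to 0.15. The ER-membrane median rested on single genes: it was 0.0047 without FADS1, FADS2 or ELOVL1 and 0.11 without SCD, ELOVL5 or ELOVL6, so no order of the groups is read from it. With PF846 the medians were 0.043 and 0.023, and the ranges 0.0040 to 0.071 and -0.087 to 0.052. Here the ER-membrane median was 0.0048 without FADS2, ELOVL1 or ELOVL5 and 0.041 without SCD, FADS1 or ELOVL6. When the normalized counts were summed, the sum for the soluble enzymes had log2 ratios of 0.14 (PF8503) and 0.061 (PF846), that for the ER-membrane enzymes 0.027 and -0.056. These sums are set by FASN and ACLY on one side and SCD on the other. No test of the difference between the groups was made, since genes are not replicates.

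All transcripts were sorted by hydrophobic stretches to set these groups in context. With PF8503 the median log2 ratio was 0.0059 for the 6277 transcripts with no stretch, 0.018 for the 1518 with 1, 0.041 for the 723 with 2 or 3 and 0.036 for the 572 with 4 or more. With PF846 the medians in the same order were 0.0018, -0.0038, -0.0015 and 0.0078. The ER-membrane enzymes, which all have at least 2 stretches, had medians of 0.057 and 0.023. Of the soluble enzymes with no stretch, ACLY had 0.091 and 0.055 and ME1 -0.0028 and 0.0040. Of those with 1 stretch, FASN had 0.18 and 0.071 and ACACA 0.052 and 0.031.

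**Figure D3:**
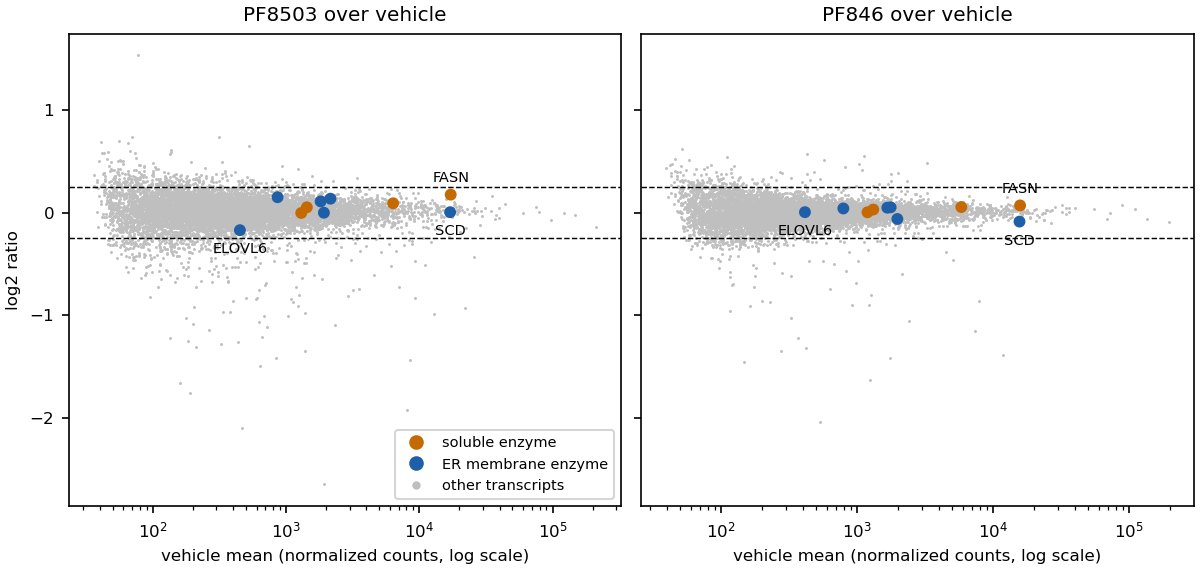
Log2 ratio against vehicle mean (normalized counts, log axis) for all transcripts of each table (grey), with the soluble enzymes in orange and the ER-membrane enzymes in blue; dashed lines mark the fold of 0.25. All 10 enzymes lay between the dashed lines in both panels.

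The part of each coding sequence that was counted was the same for both compounds. Where the running totals of reads along a transcript differed strongly between treated and control cells, the authors counted only downstream of the point of widest difference (DMax), and otherwise nearly the whole coding sequence. The vehicle libraries are shared by the tables, and their means keep 1 ratio, 1.09, wherever the codons counted were the same. Of the 8775 transcripts in both tables, 134 departed from it by more than 0.002 on the log2 scale. The largest departure among the 10 enzymes was 0.00016, so none was counted over different regions for PF8503 and PF846. In none of the 10 did a 28-base window of the coding sequence occur, on either strand, in the canonical transcript of another protein-coding gene, though the records of FADS1 and FADS2 overlap on opposite strands of chromosome 11 and the proteins have 62.2% identical residues over 444 aligned positions. A search of ACTB, which has close copies, found 24.4% of windows shared.

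With the counted region the same, the authors' means with PF8503 and PF846 could be set against each other at the same dose and time, after division by the ratio of 1.09. The vehicle libraries drop out of this comparison. None of the 10 pairs of values differed by 0.25 or more on the log2 scale, against 6.74% of transcripts, 3.15% with PF8503 higher and 3.59% with PF8503 lower. PF8503 was the higher for 7 of the 10, against 53.9% of transcripts. The values ran from -0.18 for ELOVL6 to 0.20 for FADS1. Without single libraries neither a test nor an interval of these differences could be given, so the compounds are not shown to act alike on these genes.

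FADS1 had the widest gap between the compounds. Against vehicle its log2 ratios were 0.14 (PF8503) and -0.062 (PF846), and PF8503 over PF846 was 0.20, at percentile 99.1 of transcripts of like signal and above their central 95% of -0.18 to 0.16. FADS2, whose record overlaps that of FADS1 on chromosome 11, had a gap of 0.11, inside the central 95%. FASN had 0.10 and SCD 0.091, at percentiles 94.6 and 92.4 among transcripts of like signal. ELOVL6 had the lowest value, -0.18, at percentile 5.69. The gaps of ELOVL1 (0.061), ELOVL5 (-0.053), ACLY (0.037), ACACA (0.022) and ME1 (-0.0068) were smaller.

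The other genes of fatty acid metabolism were described from lists of 84 genes, of which 71 were in each table. The lists, too, were chosen with earlier results of these data known. With PF8503 5 were past the fold upward and 1 downward. With PF846 0 were past it upward and 2 downward. The backgrounds given above are 3.79% and 4.23% for PF8503, and 1.66% upward and 2.13% downward for PF846. The median log2 ratio over the listed genes was 0.053 with PF8503 and -0.0074 with PF846. Genes past the fold are named below for that reason, so their extreme percentiles among transcripts of like signal largely follow from the choice.

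None of the genes that supply acetyl units and NADPH passed the fold. Of 11 genes, 10 were listed for PF8503 and 9 for PF846, with 0 past the fold in either. IDH1, a cytosolic source of NADPH and the most read of this list, went from 11618 to 10452 normalized counts with PF8503 and from 10635 to 10198 with PF846, log2 ratios of -0.15 and -0.060. It was the lowest of the list with both compounds. The highest with PF8503 was SLC25A1, the mitochondrial citrate carrier, at a log2 ratio of 0.16 and percentile 97.5 of transcripts of like signal, and at 0.028 with PF846.

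The partners of the ELOVL proteins, which finish each round of elongation in the ER membrane, were also inside the fold. HACD3, a 3-hydroxyacyl-CoA dehydratase and the most read of them, had 5747 normalized counts with vehicle against 5755 with PF8503, and 5261 against 5076 for PF846. All 4 partners listed, which include HACD2, TECR and HSD17B12, had log2 ratios of 0.0020 to 0.10 for PF8503 and -0.051 to 0.027 for PF846. HACD1 and HACD4 were not listed in either table.

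Of the remaining elongases and desaturases, 3 of 7 were listed and 1 passed the fold. FADS3 (ENSG00000221968, chromosome 11, 61873519 to 61892051), which lies beside FADS2 and has 63.0% identical residues to it, went from 158 to 196 normalized counts with PF8503, a log2 ratio of 0.31, and from 145 to 151 with PF846, a log2 ratio of 0.059. It was at percentile 97.5 of transcripts of like signal with PF8503. ELOVL2, the most read of this list, had log2 ratios of -0.014 and 0.025. Of the electron donors to the desaturases, 5 of 6 were listed and 0 passed the fold, and CYB5R3, the cytochrome b5 reductase most read among them, had 0.063 with PF8503 and 0.0096 with PF846.

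Among the regulators of lipogenesis 17 of 18 genes were listed, and 1 passed the fold. INSIG1, the ER membrane protein that holds back SREBP activation, went from 263 to 317 normalized counts with PF8503, a log2 ratio of 0.27 at percentile 97.9 of transcripts of like signal. With PF846 it went from 241 to 226, a log2 ratio of -0.089. PRKAA1, a catalytic subunit of AMP-activated kinase and the most read of this list, had log2 ratios of 0.025 and 0.043.

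Glycerolipid assembly, which uses the finished acyl chains, held 3 of the 5 genes past the fold upward with PF8503. AGPAT2, which makes phosphatidic acid, went from 648 to 793 normalized counts, a log2 ratio of 0.29. AGPAT3, of the same family, went from 273 to 338, a log2 ratio of 0.31, and DGAT1, which completes triglyceride, from 960 to 1142, a log2 ratio of 0.25 (0.24 after centring, short of the fold). They were at percentiles 99.3, 98.7 and 98.9 of transcripts of like signal, which largely follows from their being named for passing the fold. With PF846 the same genes had log2 ratios of 0.0023, 0.13 and 0.022. All 11 genes of this list in the PF8503 table were above 0, against 54.7% of all transcripts, with a median of 0.074. With PF8503, 52.3% of transcripts with no hydrophobic stretch were above 0. The share was 56.9% with 1 stretch, 64.5% with 2 or 3 and 62.8% with 4 or more. With PF846 the shares in the same order were 50.7%, 48.2%, 49.6% and 52.7%. AGPAT2, AGPAT3 and DGAT1 have 3, 4 and 6 stretches, and a link between stretches and the values of this list was not tested. For PF846 8 of 12 genes of the list were above 0, against 50.3% of all transcripts, with a median of 0.012. The difference between the compounds was not tested. PLIN2, the lipid droplet coat protein and the most read of them, had 0.064 and 0.061.

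The lowest values of the further lists were in the separate mitochondrial pathway of fatty acid synthesis, and were those of single genes. They were NDUFAB1 with PF8503, and NDUFAB1 and ACSF3 with PF846. NDUFAB1, the mitochondrial acyl carrier protein and also a subunit of respiratory complex I, went from 1911 to 1603 normalized counts with PF8503, a log2 ratio of -0.25, and from 827 to 558 with PF846, a log2 ratio of -0.57. Its vehicle reads in the PF8503 table came to 212% of those in the PF846 table after the ratio of 1.09, so different regions were counted and its values for the compounds are not comparable. ACSF3, a malonyl-CoA synthetase, went from 96.9 to 66.8 normalized counts with PF846, a log2 ratio of -0.54, over the same region as in the PF8503 table, where it was -0.098. With PF846 ACSF3 was at percentile 0.361 and NDUFAB1 at 0.255 of transcripts of like signal, and with PF8503 NDUFAB1 was at 1.97. Fewer vehicle reads of NDUFAB1 were counted for PF846, so its count there began at DMax, which was set from these same data. A low ratio past that point is favoured by how it is set, so the percentile of NDUFAB1 with PF846 is not read as unusual. ACSF3 was little read, and a minimum mean of 100 normalized counts would leave it out. The list had 6 of 7 genes in each table and the other 4 had log2 ratios of -0.069 to 0.075 for PF8503 and -0.032 to 0.057 for PF846.

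Fatty acid oxidation, the opposing pathway, had 15 of 16 genes listed and 0 past the fold with either compound. Its median was -0.034 with PF8503 and -0.023 with PF846. HADHA, the alpha subunit of the mitochondrial trifunctional protein and the most read of this list, had 6516 normalized counts with vehicle against 6527 with PF8503, and 5964 against 5906 for PF846.

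**Figure D4:**
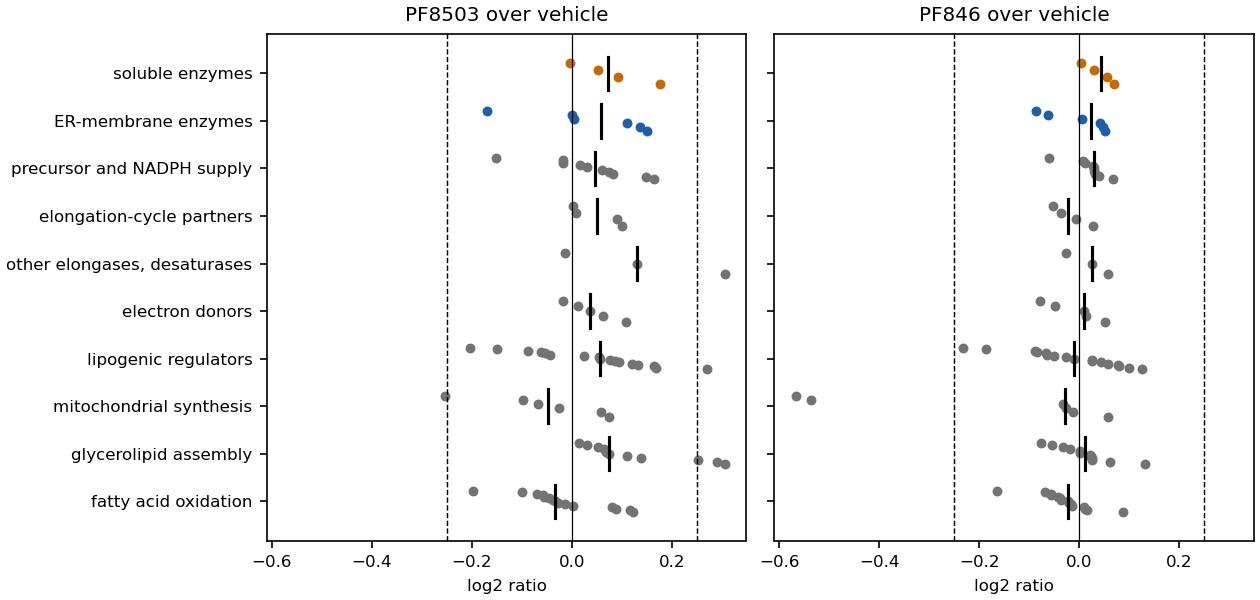
Log2 ratio with PF8503 and with PF846 over vehicle for the enzymes described (orange and blue) and for the further gene lists (grey), each point a gene listed in that table; black bars are medians and dashed lines the fold of 0.25. With PF8503 the points beyond the lines were FADS3, INSIG1, AGPAT2, AGPAT3, DGAT1 and NDUFAB1, and with PF846 they were NDUFAB1 and ACSF3.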

How the data were processed

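The authors aligned reads with Bowtie to canonical coding transcripts (GENCODE version 24, GRCh38), retained reads with 1 position, and counted them downstream of DMax if it had a Z score of 2 or more and otherwise without 10 codons at each end. Transcripts needed more than 30 counts. Versions of these tools are not given in the sources used here. Each deposited signal is the authors' mean, over a condition's libraries, of counts divided by DESeq size factors. The tables also hold the authors' fold changes, p-values and adjusted p-values, which were not used.

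Computed here were log2 ratios of the means (no pseudocount), shares past the fold, ranks and percentiles. The vehicle column was identified as the one with a constant ratio between tables. The steps were tested on simulated data with counting noise only. The changes planted there were larger than that of any member, so ratios as small as those of the members were not covered. Of 9221 gene symbols, 9152 (99.3%) were matched to GENCODE version 44 on GRCh38, which gave positions, sequences and coding lengths. The members and gene lists were chosen with earlier results of these data known. Named were all members and, from each further list, the gene with the highest vehicle mean and every gene past the fold. SLC25A1, HACD2, TECR, HSD17B12, HACD1 and HACD4 were named after their values were seen, as were the markers AFP, ALB, HNF4A and APOC3. The alternatives were centring on the median, a pseudocount of 1, folds of 0.15 and 0.5, a mean of at least 100, transcripts in both tables only, leaving out each member, whole coding length and the other vehicle mean. Python 3.11.15, numpy 2.4.6, pandas 2.3.3, biopython 1.88 and matplotlib 3.10.9 were used.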

Additional observations from a re-analysis of the deposited data

How the results depend on the processing

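No paired analysis was possible because the columns used here are means over libraries and carry no replicate number; for the same reason no replicate was left out. The count of members past the fold was 0 with each compound as reported, after centring on the median, with a pseudocount of 1, at a fold of 0.5, with a mean of at least 100 and with transcripts in both tables only. The fold of 0.5 and the last 2 filters could not have changed a count of 0. That fold was stricter, and all members had means above 100 and were in both tables. The pseudocount moved no log2 ratio with PF8503 by more than 0.00040. At a fold of 0.15 the count was 2 upward (FASN and FADS2) and 1 downward (ELOVL6) with PF8503, where 12.1% and 10.1% of transcripts passed, and 0 with PF846. Centring took 0.013 from each log2 ratio with PF8503, which left 6 in place of 7 members above 0 (SCD moved to -0.0080) and DGAT1 at 0.24, under the fold. Leaving out 1 member at a time kept the medians with PF8503 between 0.052 and 0.091 for the soluble and between 0.0047 and 0.11 for the ER-membrane enzymes, and with PF846 between 0.031 and 0.055 and between 0.0048 and 0.041. By whole coding length SCD was 6.93 times FASN. Only the means were used, so a value inside the spread among transcripts of like signal is not shown to differ from vehicle, nor to equal it.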
